A study of Rattus norvegicus with 8 samples.

Results

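The genes of MHC class II antigen presentation were examined in the lungs of ventilated and non-ventilated rats. They were taken as all probe sets of the array table whose platform gene symbol is Cd74, RT1-Da, RT1-Ba, RT1-Bb, RT1-Db1, RT1-DMa, RT1-DMb or Ciita. The rule used no measured value and found 12 probe sets of these 8 genes, among 20242 probe sets of 11218 named genes in all. A test was possible for 11 of the 12, within a table of 16896 probe sets that reached log2 5 on at least 2 arrays. Male Sprague-Dawley rats of 340 to 400 g gave tissue of the dorsal-caudal lung quadrant, and each sample was put on 1 Affymetrix array. The prone group (3 arrays) and the supine group (3 arrays) were anesthetized, tracheotomized and cannulated at the jugular vein, and were ventilated for up to 3 hours at 18 mL/kg, 40 breaths per minute and a positive end-expiratory pressure (PEEP) of 0 cmH2O, lying prone or supine. The control group (2 arrays) was not ventilated. The labels do not say whether the controls were anesthetized or operated on, in which position they lay, or how long each ventilated animal was treated. Sprague-Dawley is an outbred stock, and the sources used here do not give the RT1 haplotypes of these animals.

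Class II molecules present peptides from engulfed material to CD4+ T cells. Each is a pair of an α and a β chain, and the rat carries an RT1-B pair, which corresponds to mouse H2-A and human HLA-DQ, and an RT1-D pair, which corresponds to mouse H2-E and human HLA-DR. Cd74, the invariant chain, holds the groove of new molecules closed, RT1-DM exchanges its last fragment for peptides, and Ciita is the transactivator that switches the genes on. In lung they are known mainly from B cells, dendritic cells, macrophages and alveolar type 2 cells. The peptide-binding chains are among the most polymorphic genes known.

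Class II promoters are known for an X box, bound by the RFX complex, and a Y box, bound by NF-Y. They act together as the platform on which Ciita docks. The 300-base RefSeq promoter windows (250 bases before to 50 after the gene start, GRCr8) matched 6 of the 8 genes, namely Cd74, RT1-Da, RT1-Ba, RT1-Bb, RT1-Db1 and RT1-DMa. Stretches of 96 bases are shown for the 5 genes whose window held the Y box letters, because these genes share this box while their array values below differ in how they vary. Letters run 5′ to 3′ on the gene's strand. Capitals mark the Y box GATTGG on the gene's strand and, upstream of it, the X box core ACAGATG or its wider form ACNGATG. RT1-Db1 also held a Y box on the opposite strand, 50 to 55 bases before the start, which is left in lower case. The stretches come from chr20:4515305-4515400 on the plus strand (RT1-Da), chr20:4576953-4577048 on the plus strand (RT1-Ba), chr20:4604145-4604240 on the minus strand (RT1-Bb), chr20:4560208-4560303 on the minus strand (RT1-Db1) and chr20:4712365-4712460 on the minus strand (RT1-DMa).
RT1-Da: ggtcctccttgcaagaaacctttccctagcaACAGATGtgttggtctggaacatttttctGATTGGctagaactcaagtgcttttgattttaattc
RT1-Ba: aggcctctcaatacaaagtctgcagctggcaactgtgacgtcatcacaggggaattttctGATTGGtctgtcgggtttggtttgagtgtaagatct
RT1-Bb: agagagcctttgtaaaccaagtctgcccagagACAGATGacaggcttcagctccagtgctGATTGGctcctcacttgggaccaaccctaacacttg
RT1-Db1: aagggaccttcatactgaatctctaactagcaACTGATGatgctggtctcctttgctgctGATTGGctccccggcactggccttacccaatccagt
RT1-DMa: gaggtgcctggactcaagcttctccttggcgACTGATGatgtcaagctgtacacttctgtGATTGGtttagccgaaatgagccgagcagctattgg

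Both strands were searched. The Y box GATTGG stood in 5 of the 6 class II windows and in 14.8% of all 33469 windows of the table. The X box core ACAGATG, which contains the E box form CANNTG, stood in 2 of the 6 windows and in 5.29% of all. An X box core followed on the same strand by a Y box, with 8 to 30 bases between them, was found in the windows of RT1-Da and RT1-Bb and in 10 windows of the table, 0.0299% of all. The wider core ACNGATG, which includes ACAGATG and was added after the promoters were read, stood before a Y box in 4 of the 6 windows and in 22 windows in all (0.0657%). The gap between both boxes was 22 bases in RT1-Da and RT1-DMa, and 21 bases in RT1-Bb and RT1-Db1. The interferon gamma activated site TTCNNNGAA stood in 0 of the 6 windows and in 8.87% of all. The window of Cd74 held no GATTGG. A match of letters is a description and not a binding site, and these boxes can lie outside the windows searched.

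Values are the authors' GCRMA log2 values, so a difference of 1 unit is a factor of 2, and levels of different probe sets cannot be set against each other. No detection calls were used, so a low value cannot be told from background. Array medians lay between 7.77 and 7.95. Supine replicate 3 differed from the rest by its controls for intact RNA, with a 3′ minus 5′ probe set difference of 9.10 for actin (3.16 to 4.64 on the other 7 arrays) and 8.41 for GAPDH (0.70 to 1.92). The lung markers Sftpc and Sftpa1, surfactant proteins of alveolar type 2 cells, were at 14.23 or above on every array. Every comparison used limma on all 8 arrays with 1 mean per group, and a probe set was called at a Benjamini-Hochberg adjusted p under 0.05 over the whole table. Errors after a difference are the model's standard errors (SE), which borrow spread from other probe sets and so exceed the SD of very even genes such as Cd74. The number of arrays limits the precision of all values, and both comparisons with control share the 2 control arrays. The p-values weigh a difference of group means against the spread between these samples, combined with that of other probe sets.

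No class II probe set was called in any comparison. In prone against control lungs 0 of 11 were called, against 9 probe sets (0.0533%) of the whole table, and the smallest adjusted p was 0.238 (RT1-DMb). In supine against control lungs 0 of 11 were called, against 0.0533% of the table, with a smallest adjusted p of 0.308 (RT1-Db1, probe set 1370382_at). All 6 ventilated arrays against control gave 0 of 11, against 24 probe sets (0.142%), with a smallest adjusted p of 0.272 (RT1-DMb). Supine against prone gave 0 of 11, against 0%, with a smallest adjusted p of 0.942. With the replicate number as a block, 0 probe sets of the whole table were called in each comparison.

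At an unadjusted limma p under 0.05, 2 of the 11 were lower in prone than in control lungs (RT1-Bb and RT1-DMb), where 10% of the table was lower and 17.7% differed either way. In supine against control lungs 1 of 11 was higher (RT1-Db1, probe set 1370382_at), where 7.18% of the table was. With all ventilated lungs together, 0 of 11 reached that p, against 19.2% of the table. In supine against prone lungs 2 of 11 were higher (RT1-Bb and RT1-Db1, probe set 1370382_at), against 2.6% of the table. With the brightest probe set standing for each gene, 6 of the 8 genes were lower and 2 higher in prone lungs, with a median difference of -0.49 against -0.12 over all tested probe sets. In supine lungs 6 were lower and 2 higher than in control, with a median of -0.18 against -0.07. In supine against prone lungs 3 were lower and 5 higher, with a median of 0.16 against 0.03. Leaving out 1 array at a time moved these medians to between -0.71 and -0.35 for prone against control and between -0.24 and -0.05 for supine against control. For supine against prone they lay between -0.08 and 0.44, with the sign turning without supine replicate 1.

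**Figure D1:**
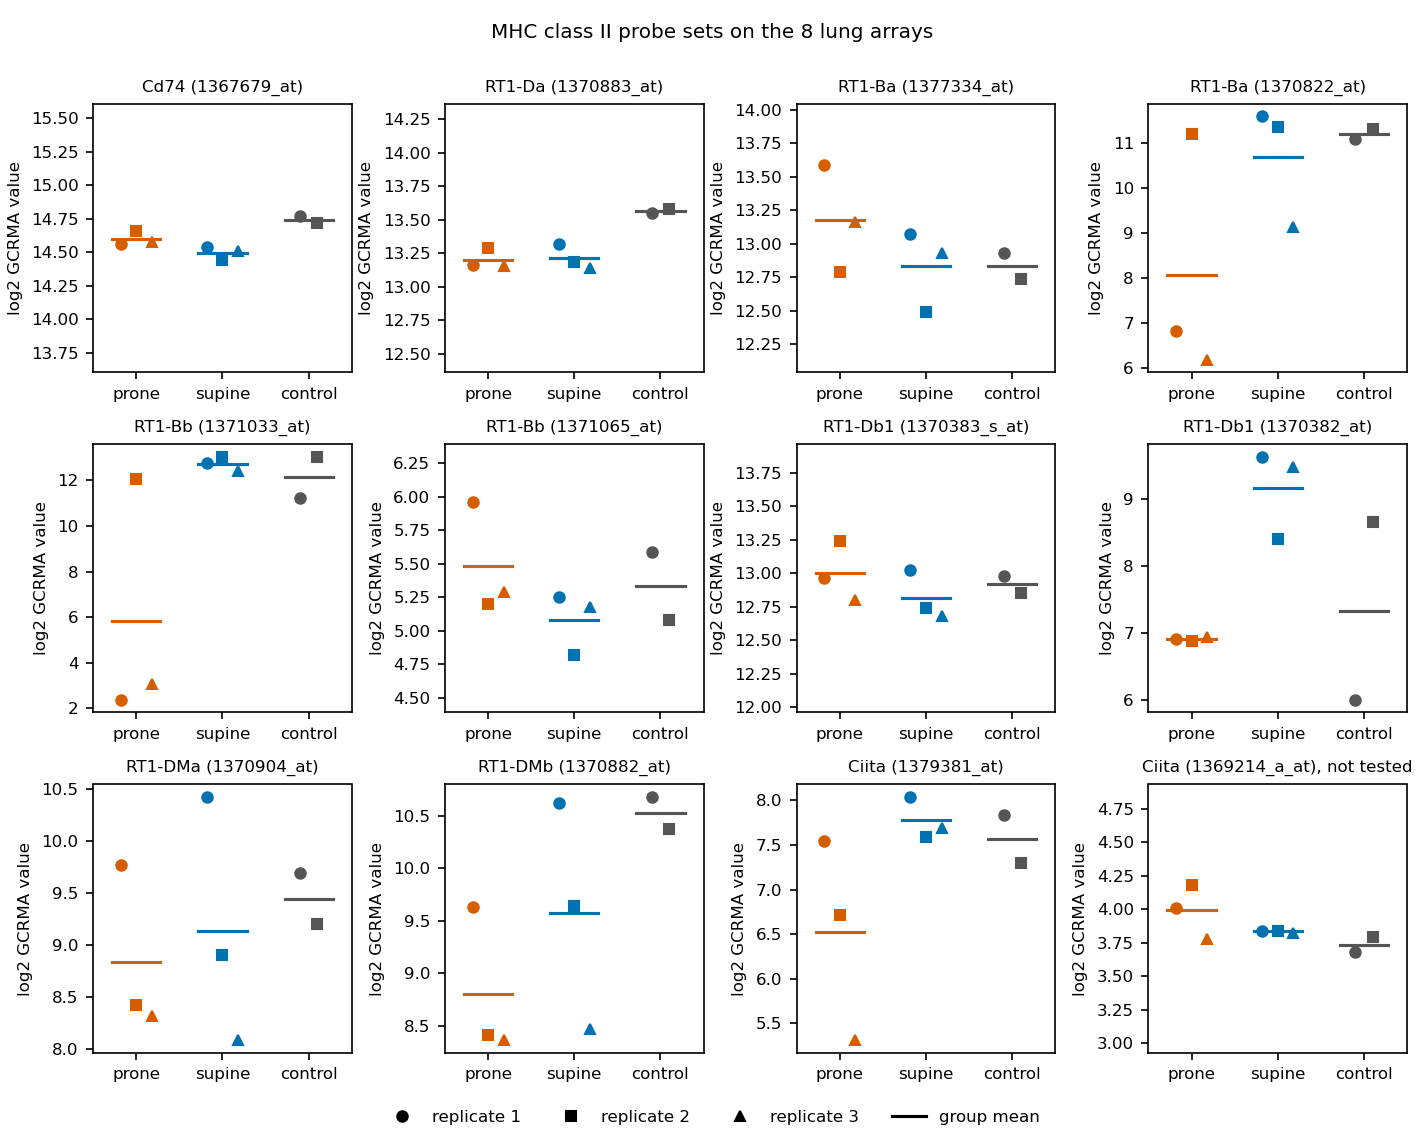
Log2 GCRMA values of the 12 class II probe sets on the 8 arrays, 1 panel per probe set with its own vertical axis, points for arrays, marker shapes for replicate numbers and lines for group means. RT1-Bb (1371033_at) and RT1-Ba (1370822_at) are lowest on prone replicates 1 and 3, with RT1-Ba (1370822_at) next lowest on supine replicate 3, while Cd74 and RT1-Da are lower on all 6 ventilated arrays than on both control arrays.

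The invariant chain gene Cd74 was among the brightest probe sets on every array, above 99.7% of the probe sets or more, and varied little. Its value was 14.56, 14.66 and 14.58 on the prone arrays, 14.54, 14.44 and 14.51 on the supine arrays, and 14.77 and 14.72 on the control arrays. All 6 ventilated arrays lay below both control arrays. The difference was -0.15 ± 0.25 SE in prone against control lungs (limma, adjusted p = 0.793) and -0.25 ± 0.25 SE in supine against control lungs (adjusted p = 0.625), and neither was called. The whole table also stood lower, with a median of -0.12 in prone lungs. With arrays centred on their medians the prone difference of Cd74 was 0 and the supine one -0.18. In bulk tissue, fewer cells of a type and less RNA per cell cannot be told apart.

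RT1-Da, the α chain of the RT1-D pair, showed the same order. It stood at 13.16, 13.29 and 13.15 on prone arrays, 13.32, 13.18 and 13.14 on supine arrays, and 13.55 and 13.58 on control arrays. No ventilated array reached a control array. The difference was -0.37 ± 0.25 SE in prone lungs (limma, adjusted p = 0.489) and -0.35 ± 0.25 SE in supine lungs (adjusted p = 0.508). With centred arrays it was -0.22 in prone and -0.28 in supine lungs. Supine and prone lungs differed by 0.01 ± 0.22 SE, and this sign turned with centred arrays (-0.06) and with array weights (-0.02). Cd74 and RT1-Da were the 2 of 11 class II probe sets whose 6 ventilated values all lay below both controls, where 16.7% of the table did so. They were also the 2 whose supine values all lay below the controls, against 21.8% of the table.

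The β chain of that pair, RT1-Db1, was read by a bright and a dim probe set that did not run together. The platform annotation gives both sets the same target sequence. The suffix s of the bright one marks probes that match more than 1 transcript, so related β chain genes may add to it. On the bright one (1370383_s_at) it was at 12.96, 13.24 and 12.80 in prone, 13.02, 12.74 and 12.68 in supine, and 12.98 and 12.85 in control lungs, and the groups overlapped. Its difference was 0.08 ± 0.28 SE in prone and -0.10 ± 0.28 SE in supine lungs against control (limma, adjusted p = 0.906 and 0.876). The bright set thus showed no separation of the groups.

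On the dim one (1370382_at) RT1-Db1 was at 6.91, 6.88 and 6.95 in prone, 9.64, 8.41 and 9.48 in supine, and 6.0 and 8.66 in control lungs. All 3 supine arrays lay above all 3 prone arrays, and the 2 controls lay on either side of the prone values. Supine lungs were higher than prone lungs by 2.26 ± 0.66 SE (95% interval 0.71 to 3.81), which was not called (limma, adjusted p = 0.942). Against control the supine difference was 1.85 ± 0.74 SE (adjusted p = 0.308), and 0.52 without control replicate 1 or 3.18 without control replicate 2. The prone difference of this probe set was -0.41 ± 0.74 SE (adjusted p = 0.811), and its sign also depended on which control was kept, being -1.74 without control replicate 1 and 0.92 without control replicate 2.

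The widest differences among the class II genes were those of the RT1-B pair. RT1-Bb, the β chain, was at 2.35, 12.07 and 3.06 on the prone arrays with probe set 1371033_at, against 12.76, 13.01 and 12.42 on the supine arrays and 11.23 and 13.05 on the control arrays. Prone replicates 1 and 3 were thus at the bottom of the scale while prone replicate 2 was near the other 5 arrays. The smallest gap between these 2 arrays and any other array was 8.17 log2 units. RT1-Bb was the 1 probe set of 16896 for which both arrays lay more than 5 units under all others, and 4 probe sets did so by more than 2 units. This count was added after the values were seen, for 2 arrays picked because RT1-Bb was low there, so it is a description only. The range of RT1-Bb within the prone group was 9.72, and 3 probe sets of the table, RT1-Bb included, had a range as wide.

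The group means of RT1-Bb (1371033_at) were 5.83 ± 5.42 in prone, 12.73 ± 0.30 in supine and 12.14 ± 1.29 in control lungs (SD, n = 3, 3 and 2). Supine lungs were higher than prone lungs by 6.90 ± 2.33 SE (95% interval 1.47 to 12.33), which was not called (limma, adjusted p = 0.942). The prone difference from control was -6.31 ± 2.60 SE (95% interval -12.38 to -0.24, adjusted p = 0.267), and the supine one was 0.59 ± 2.60 SE (adjusted p = 0.921). Without prone replicate 2 the supine against prone difference was 10.02 and was called (limma, adjusted p = 0.0209), while the prone difference from control was -9.43 and was not (adjusted p = 0.0546). Of the 3 prone samples, 2 carried this difference. Their values lay above 1.57% and 5.92% of the probe sets on their arrays and cannot be told from background, so the size of the difference is uncertain.

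RT1-Ba, the α chain, showed the same 2 arrays as lowest on the dimmer of its probe sets. With probe set 1370822_at it was at 6.83, 11.22 and 6.18 in prone, 11.60, 11.36 and 9.15 in supine, and 11.11 and 11.32 in control lungs. Prone replicates 1 and 3 were again the lowest arrays, and supine replicate 3, the array with the wide 3′ to 5′ difference, was the next. The difference was -3.13 ± 1.46 SE in prone against control (limma, adjusted p = 0.317), -0.51 ± 1.46 SE in supine against control (adjusted p = 0.877), and 2.62 ± 1.31 SE in supine against prone lungs (adjusted p = 0.942).

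The brighter probe set of RT1-Ba ran the other way. With this set, 1377334_at, RT1-Ba was at 13.59, 12.79 and 13.16 in prone, 13.07, 12.49 and 12.93 in supine, and 12.93 and 12.74 in control lungs, so that prone replicates 1 and 3 were its highest arrays. Its difference was 0.34 ± 0.34 SE in prone lungs (limma, adjusted p = 0.636) and -0.01 ± 0.34 SE in supine lungs (adjusted p = 0.993), the supine sign turning to 0.07 with centred arrays and 0.08 after a further quantile normalization. With the dim set 1371065_at, RT1-Bb was at 5.96, 5.20 and 5.29 in prone, 5.25, 4.82 and 5.18 in supine, and 5.59 and 5.08 in control lungs, and its groups overlapped. This set lay above 19.9% to 30.8% of the probe sets on each array, near the filter. Whether it could have shown a loss of RT1-Bb was not tested. Prone replicates 1 and 3 were not its lowest arrays, and prone replicate 1 was its highest. For RT1-Ba, low values on prone replicates 1 and 3 were thus seen with 1 of its 2 probe sets. For RT1-Bb they were seen with the brighter set and not with the dim one.

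**Figure D2:**
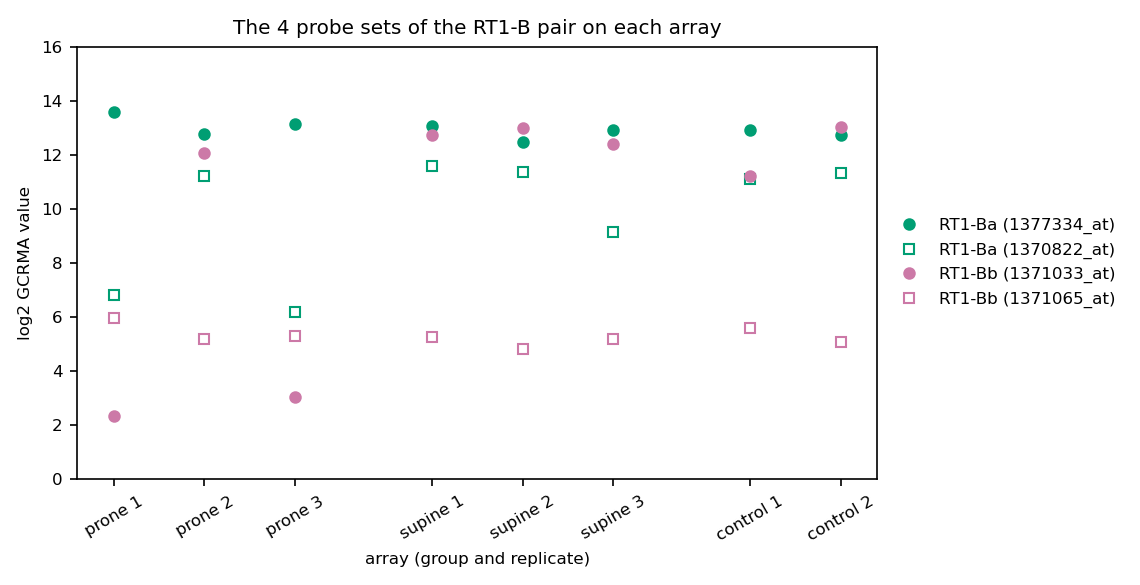
Log2 GCRMA values of the 4 probe sets of RT1-Ba and RT1-Bb on each of the 8 arrays, filled circles for the brighter and open squares for the dimmer probe set of a gene. On prone replicates 1 and 3, RT1-Bb (1371033_at) is at 2.35 and 3.06 and RT1-Ba (1370822_at) at 6.83 and 6.18, while RT1-Ba (1377334_at) is at 13.59 and 13.16.

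Over the 8 arrays, Pearson's r was 0.93 between RT1-Bb (1371033_at) and RT1-Ba (1370822_at), -0.81 between that RT1-Bb set and the brighter RT1-Ba set, -0.74 between both RT1-Ba sets, -0.67 between both RT1-Bb sets and -0.42 between both RT1-Db1 sets. These describe 8 arrays that share groups and scaling. Both RT1-Bb (1371033_at) and RT1-Ba (1370822_at) were lowest on prone replicates 1 and 3, and the r of 0.93 leans on these arrays. No r was computed without them, so whether the pair ran together on the other arrays was not tested.

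Markers of B cells, a main class II cell type, also differed between these prone arrays. Of the 15 listed B cell genes 12 were tested and 0 were called. Their median difference from the control mean was -1.42, 0.24 and -2.10 on prone replicates 1, 2 and 3, -1.30, -1.15 and -1.45 on the supine arrays, and 0.55 and -0.55 on the control arrays. Ms4a1, which encodes the B cell surface protein CD20, was at 4.34, 8.90 and 4.98 in prone, 6.60, 7.42 and 6.95 in supine, and 9.64 and 8.0 in control lungs. Prone replicate 2 was the highest prone array for every tested B cell gene except Fcrla and Cd37. Fcrla was at 9.29, 8.47 and 8.48 in prone, 10.25, 8.91 and 9.14 in supine, and 10.84 and 9.89 in control lungs. Blk, a kinase of B cells, was at 7.30, 9.27 and 7.77 in prone, 6.83, 5.97 and 8.13 in supine, and 6.88 and 5.11 in control lungs, so that all prone values lay above both controls. The median of the list was thus low on the 2 arrays where RT1-Bb was low, but also on the supine arrays, where RT1-Bb was at 12.42 or above. Their part in the RT1-Bb values was not tested. Ms4a1 and Blk were chosen for print after their values were seen.

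RT1-DMa and RT1-DMb, the chains of the peptide exchange molecule, varied more within groups than Cd74 and RT1-Da did. RT1-DMa was at 9.77, 8.42 and 8.31 in prone, 10.43, 8.90 and 8.08 in supine, and 9.69 and 9.20 in control lungs. The groups overlapped, and in both ventilated groups replicate 1 was the highest and replicate 3 the lowest. The difference was -0.61 ± 0.73 SE in prone lungs (limma, adjusted p = 0.699) and -0.31 ± 0.73 SE in supine lungs (adjusted p = 0.85). Supine replicate 3 was the array with the wide 3′ to 5′ difference, and without it the supine difference was 0.22.

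RT1-DMb was at 9.63, 8.41 and 8.36 in prone, 10.62, 9.64 and 8.47 in supine, and 10.68 and 10.37 in control lungs. All 3 prone arrays lay below both controls, while supine replicate 1 reached them. The prone difference was -1.72 ± 0.66 SE (limma, adjusted p = 0.238) and the supine one -0.95 ± 0.66 SE (adjusted p = 0.502). Without supine replicate 3, the lowest supine array here too, the supine difference was -0.4. With array quality weights the prone difference was -2.03 and was called (limma, adjusted p = 0.00411), in a fit that called 5724 of 16896 probe sets. RT1-DMb, RT1-Da and Cd74 were the 3 of 11 class II probe sets with all prone values below all controls, where 27.7% of the table stood so. Over the 8 arrays Pearson's r was 0.87 between RT1-DMa and RT1-DMb, and 0.85 between Cd74 and RT1-Da, both as descriptions.

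Ciita, the transactivator, was at 7.54, 6.71 and 5.31 in prone, 8.04, 7.59 and 7.69 in supine, and 7.84 and 7.30 in control lungs (probe set 1379381_at). All supine arrays lay above all prone arrays, with supine replicate 2 next to prone replicate 1, and the lowest value was that of prone replicate 3. Supine lungs were higher than prone lungs by 1.25 ± 0.55 SE (limma, adjusted p = 0.942), and by 0.64 without prone replicate 3 or 1.76 without prone replicate 1. The prone difference from control was -1.05 ± 0.61 SE (limma, adjusted p = 0.415), and -0.44 without prone replicate 3 or -1.56 without prone replicate 1. The supine one was 0.20 ± 0.61 SE (limma, adjusted p = 0.885). With array quality weights the prone difference was -1.30 and was called (limma, adjusted p = 0.0411), in the fit that called 5724 of 16896 probe sets. The second probe set of Ciita (1369214_a_at) stood between 3.68 and 4.18 on all arrays and was not tested.

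Ciita and the genes it switches on did not follow 1 common order over the arrays. Pearson's r between Ciita and RT1-DMb was 0.66, between Ciita and RT1-DMa 0.59, and between Ciita and Cd74 -0.06, as descriptions over 8 arrays. In supine against prone lungs 3 of 11 class II probe sets had all supine values above all prone values, where 3.78% of the table did. These were RT1-Bb (1371033_at), RT1-Db1 (1370382_at, not its bright set) and Ciita (1379381_at). In 1 of 11 (Cd74) all supine values lay below all prone values, where 2.11% of the table did.

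**Figure D3:**
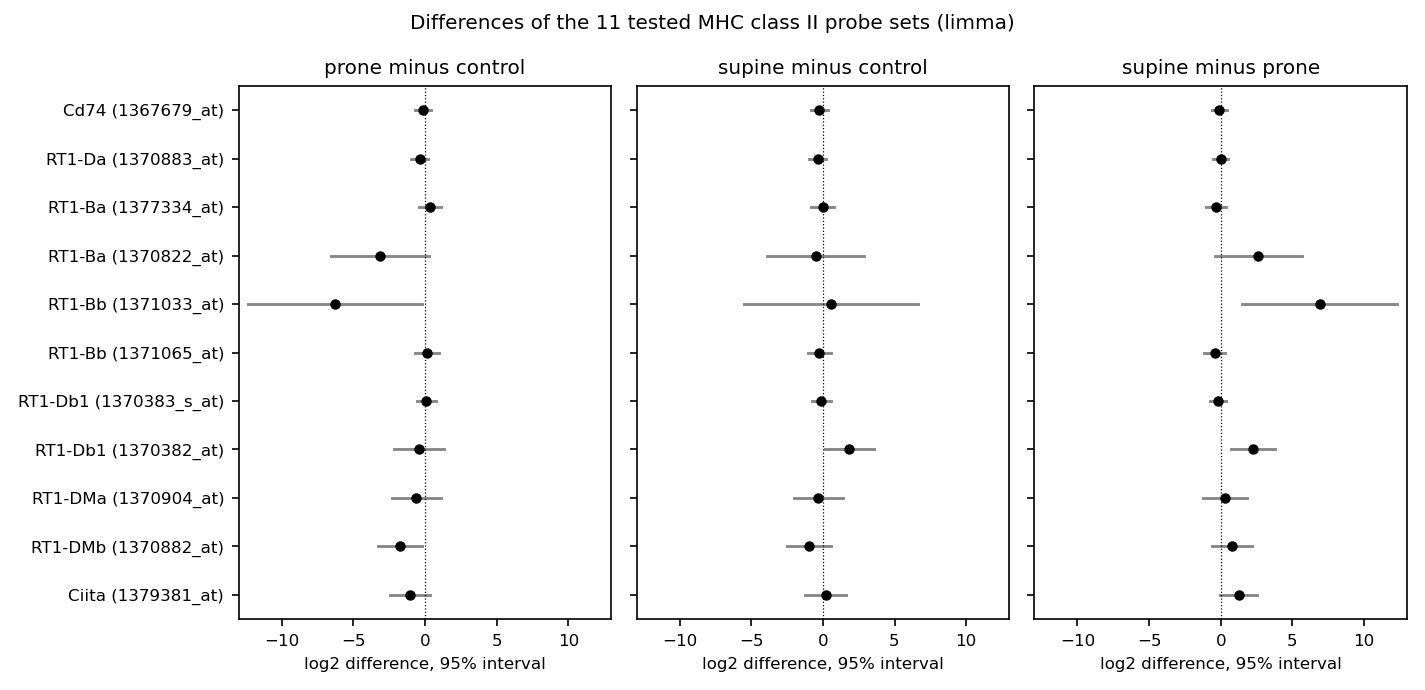
Log2 differences of the 11 tested class II probe sets with 95% intervals of the limma model, for prone minus control, supine minus control and supine minus prone lungs. The interval of RT1-Bb (1371033_at) is the widest, from -12.38 to -0.24 in prone minus control and from 1.47 to 12.33 in supine minus prone lungs, and none of the differences passed the adjusted threshold.

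The tested genes most like Cd74 over the 8 arrays were Ttll1, Rpl23, Rpl23a, Rpl27a and Rpl26, with a root mean square difference between profiles of 0.050, 0.055, 0.063, 0.069 and 0.081 log2 units. Each profile was taken as the difference from the gene's own control mean, and 10239 genes were ranked. All 5 were thus nearly level over the arrays, as Cd74 was. Among the class II genes RT1-Da was nearest to Cd74, at rank 88 with 0.154, followed by RT1-Db1 at rank 255 with 0.208. RT1-Bb was at rank 10228.

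Other genes of the pathway were counted from lists, and no listed gene was called in any comparison. Of 18 tested genes for transcription of class II genes (23 listed), 13 were higher and 5 lower in prone lungs, with a median of 0.25, and 14 were higher and 4 lower in supine lungs, with a median of 0.21. The brightest of them, Jak1 and Ifngr1, a kinase and a receptor chain of interferon gamma signalling, differed from control by 0.20 ± 0.28 SE and 0.28 ± 0.30 SE in prone lungs and by 0.17 ± 0.28 SE and 0.21 ± 0.30 SE in supine lungs (limma, adjusted p of 0.665 or above). Single genes of this list differed more, and 2 are given, chosen after their values were seen. Stat3 differed by 1.47 ± 0.42 SE in prone and 1.58 ± 0.42 SE in supine lungs. Rfxank, at low values of 3.75 to 6.51, differed by -1.86 ± 0.60 SE and -1.24 ± 0.60 SE. Of 9 tested genes for peptide loading and processing (15 listed), 2 were higher and 7 lower in prone lungs, with a median of -0.12, and 5 were higher and 4 lower in supine lungs, with a median of 0.07. Ctsh and Ctsb, lysosomal cathepsins, differed by -0.05 ± 0.32 SE and 0.23 ± 0.29 SE in prone and by 0.10 ± 0.32 SE and 0.25 ± 0.29 SE in supine lungs.

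Of 4 tested costimulation genes (12 listed), 1 was higher and 3 lower in prone lungs, and 3 were higher and 1 lower in supine lungs. Icam1, an adhesion molecule, differed by -0.11 ± 0.32 SE in prone and -0.52 ± 0.32 SE in supine lungs. Icoslg, the ligand of ICOS, differed by 1.18 ± 0.41 SE in prone (limma, adjusted p = 0.207) and 0.27 ± 0.41 SE in supine lungs. Of 19 tested class I presentation genes (27 listed), 9 were higher and 10 lower in prone lungs, with a median of -0.05. In supine lungs 5 were higher and 14 lower, with a median of -0.33. Their per-array medians were 0.67, -0.43 and -0.38 on prone and 0.06, -0.21 and -1.19 on supine arrays. The lowest was on supine replicate 3, the array with the wide 3′ to 5′ difference. B2m, the light chain of class I molecules, differed by -0.25 ± 0.26 SE in prone and -0.17 ± 0.26 SE in supine lungs. Pdia3, a chaperone of class I loading, differed by 0.32 ± 0.67 SE and -0.61 ± 0.67 SE. It was at 13.57, 14.26 and 11.79 on supine replicates 1, 2 and 3, and at 13.74 and 13.90 in control lungs.

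Markers of the cells a lung piece can hold moved by unlike amounts beside the class II genes, and their part in the class II values was not tested. The class II genes had per-array medians of -0.11, -0.18 and -0.77 on prone and 0.17, -0.32 and -0.24 on supine arrays, as differences from the control mean. T and NK cell markers were at -1.40, -1.44 and -3.08 on prone and -0.51, -1.36 and -1.78 on supine arrays. Of their 14 tested genes, 14 were lower in prone and 13 in supine lungs, and the brightest were Prf1, a killing protein, with -1.97 ± 0.59 SE and -1.76 ± 0.59 SE, and Cd3g, a T cell receptor chain, with -2.85 ± 0.82 SE and -1.92 ± 0.82 SE. Of the 12 B cell genes, 8 were lower in prone and 11 in supine lungs, with medians of -1.43 and -1.07, and the brightest were Fcrla (-1.62 ± 0.52 SE in prone and -0.93 ± 0.52 SE in supine lungs) and Ebf1 (0.14 ± 0.63 SE and -0.27 ± 0.63 SE). None of these passed after adjustment.

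The medians of dendritic cell, macrophage and type 2 cell markers stood nearer to control, but single genes of these lists differed widely. Of 12 tested dendritic cell genes, 6 were lower in prone and 5 in supine lungs. Among them, chosen after their values were seen, Ccl17, a chemokine, differed by 2.56 ± 1.85 SE in prone and 4.26 ± 1.85 SE in supine lungs, and Fcer1a, a chain of the IgE receptor, by -2.57 ± 0.78 SE and -2.31 ± 0.78 SE. The brightest were Cst3 (-0.24 ± 0.33 SE in prone and -0.57 ± 0.33 SE in supine lungs) and Tcf4 (0.10 ± 0.47 SE and -0.33 ± 0.47 SE). Of 13 macrophage and monocyte genes, 8 were lower in prone and 7 in supine lungs, with Lyz2, a lysozyme, at -0.32 ± 0.25 SE and -0.27 ± 0.25 SE and Mrc1, a mannose receptor, at -0.26 ± 0.50 SE and -0.19 ± 0.50 SE. Of 12 type 2 cell genes, 11 were lower in prone and 11 in supine lungs, with medians of -0.57 and -0.30, and Sftpc, a surfactant protein, stood at -0.27 ± 0.26 SE and -0.19 ± 0.26 SE. Sftpa1, another surfactant protein, stood at -0.24 ± 0.31 SE and -0.15 ± 0.31 SE. Etv5, a transcription factor of type 2 cells also chosen after its values were seen, stood at -2.67 ± 0.98 SE and -2.97 ± 0.98 SE.

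Neutrophil markers, which belong to cells with little class II, were higher on every ventilated array, with medians of 5.40, 1.89 and 3.14 on prone and 3.80, 3.06 and 1.43 on supine arrays over 7 genes. S100a8 and S100a9, calcium-binding proteins of neutrophils, were higher than control by 2.55 ± 0.79 SE and 2.01 ± 0.50 SE in prone and by 2.57 ± 0.79 SE and 1.88 ± 0.50 SE in supine lungs, and neither was called (limma, adjusted p of 0.127 or above). Prone replicates 1 and 3, the lowest arrays for RT1-Bb (1371033_at), were higher than prone replicate 2 in this list. Supine replicate 1 was above prone replicate 3 in the list, while RT1-Bb was at 12.76 there. Whether both are related was not tested.

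**Figure D4:**
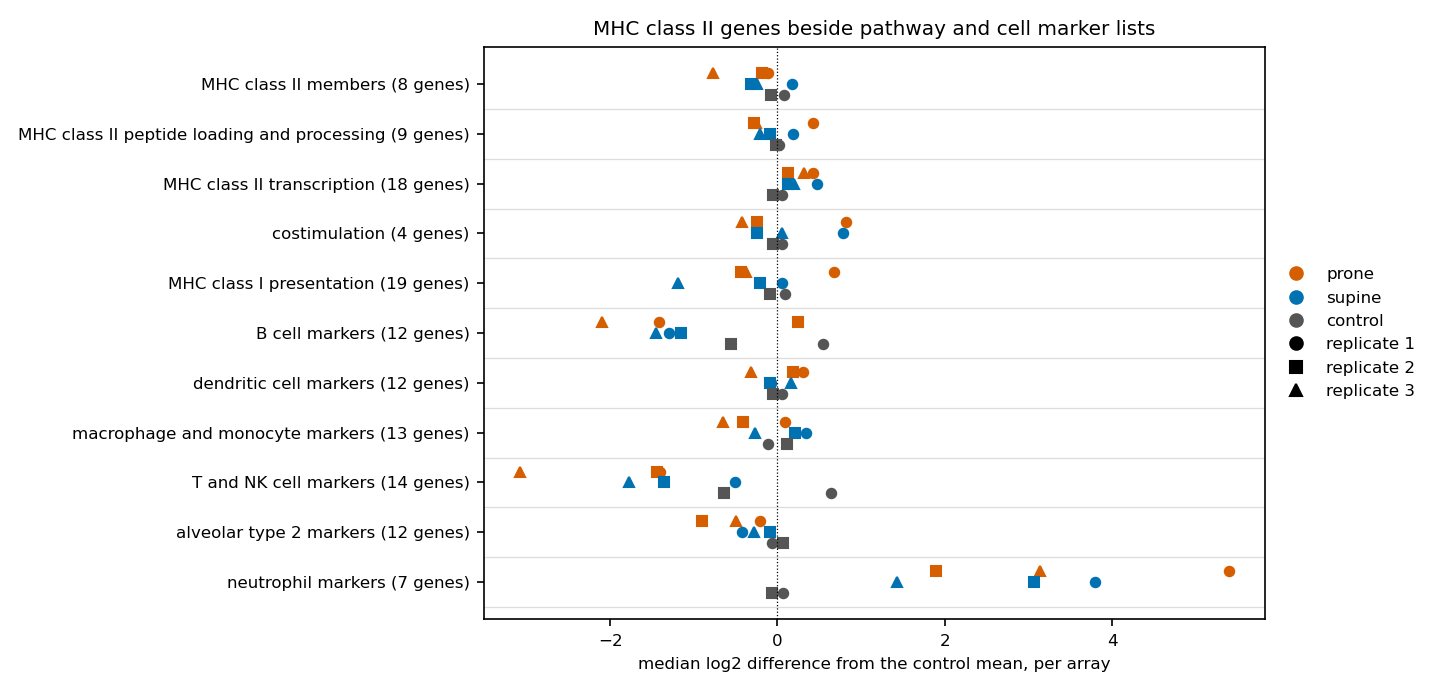
Median log2 difference from the control mean on each array for the 8 class II genes and 10 lists, with prone, supine and control arrays in colours and replicate numbers as marker shapes. The class II medians lie between -0.77 and 0.17 on the 6 ventilated arrays, while those of T and NK cell markers lie between -3.08 and -0.51 and those of neutrophil markers between 1.43 and 5.40.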

How the data were processed

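RNA labelled with biotin (300 ng per sample) was hybridised to Affymetrix rat arrays, per the labels' protocols. The authors deposited log2 values, which are GCRMA summaries made with Partek 6.5 in use, per the submitters' processing notes, and their range fits a log2 scale. Filters and any later centring are not stated in the sources used here. Groups follow the condition and position labels. Titles of supine samples read SVt, but their condition label gives the high tidal volume and was followed.

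Control probe sets (28) were set aside. Of the other 20214, 16896 reached log2 5 on 2 or more of the 8 arrays and were fitted with limma 3.58.1 in R 4.3.3 (1 mean per group, eBayes, 5 residual and 2.51 prior degrees of freedom, two-sided, Benjamini-Hochberg over the table). The model was run on simulated data with independent arrays and known shifts, so it was not tried on arrays that deviate together. Symbols came from the platform annotation. The probe set with the highest mean stood for a gene in counts and medians. The members and the 10 gene lists were chosen with earlier results of these data known. The naming rule took every member probe set, the 2 brightest genes of each list plus any that passed, and the 5 genes most like Cd74.

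Arrays of the same replicate number deviated from their group means together (correlations over all tested probe sets of 0.72, 0.29 and 0.20 between prone and supine, 0.21 and 0.11 between prone and control, 0.23 and 0.33 between supine and control), so the number was also used as a block. Some arrays of different numbers correlated as much, with 0.40 between prone replicate 3 and supine replicate 2, 0.21 between prone replicate 3 and control replicate 2 and 0.19 between prone replicate 2 and supine replicate 3. This pairing comes from the data, since no label says what a number marks. Alternatives were another scaling, other filters, an intensity trend, array weights, fewer groups in the fit, the block, other probe sets of a gene and leaving out each array. Sequences are RefSeq's (GRCr8), and probe sets were not placed on the genome.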

Additional observations from a re-analysis of the deposited data

Results flagged for a closer look

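For 3 class II probe sets every prone array and every supine array lay on opposite sides of the control mean, which 86 of 16896 tested probe sets did (0.509%). These were RT1-Bb (1371033_at), with supine over prone lungs by 6.90 log2 units, RT1-Db1 (1370382_at), by 2.26, and Ciita (1379381_at), by 1.25. In each, supine arrays were above and prone arrays below the control mean. The difference between the 2 positions was tested by the limma comparison of supine with prone lungs, and none of the 3 passed (adjusted p = 0.942 for each). The mean of RT1-Db1 (1370382_at) in control lungs lies between 2 distant values, 6.0 and 8.66. Some sides rested on small margins. For RT1-Bb (1371033_at) prone replicate 2 was at 12.07, against a control mean of 12.14. Ciita (1379381_at) was at 7.54 on prone replicate 1 and 7.59 on supine replicate 2, against a control mean of 7.57. The bright RT1-Db1 set (1370383_s_at) did not show this pattern.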

How the results depend on the processing

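Over the alternatives run, 673 differences of single class II probe sets kept sign and side of the threshold, 44 changed sign and 4 passed newly. No class II probe set passed in the main comparisons, and the exceptions were array quality weights (2 calls in prone against control, RT1-DMb and Ciita, and 1 in all ventilated against control, RT1-DMb) and leaving out prone replicate 2 (RT1-Bb in supine against prone, with 0 to 1 calls over the arrays left out). Sign changes with arrays centred were RT1-Ba supine against control 0.07, RT1-Db1 and RT1-Bb (1371065_at) ventilated against control 0.10 and 0.06, and RT1-Da supine against prone -0.06. A further quantile normalization gave 0.08, 0.04 and 0.03 for the first 3. Array weights gave RT1-Bb (1371065_at) prone against control -0.04, RT1-Db1 ventilated against control 0.02 and RT1-Da supine against prone -0.02. With the replicate block RT1-DMa and RT1-Ba (1370822_at) supine against control were 0.09 and 0.35 and RT1-Db1 ventilated against control 0.08, and the block changed no class II call. Averaging the probe sets of a gene gave RT1-Ba -1.40, -0.83 and 1.14 for prone against control, ventilated against control and supine against prone, RT1-Db1 -0.16, 0.36 and 1.04 for the same and 0.87 for supine against control, and a median over the genes of 0.66 in supine against prone, by construction, since these genes' probe sets disagree. For the other settings the cause was not tested.

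Leaving out each array in turn, signs changed within these ranges. For prone against control they were RT1-Bb (1371065_at) -0.11 to 0.40, RT1-Db1 -0.04 to 0.19 and RT1-Db1 (1370382_at) -1.74 to 0.92. For supine against control they were Ciita -0.07 to 0.47, RT1-Ba -0.12 to 0.16, RT1-Ba (1370822_at) -0.96 to 0.27, RT1-Bb (1371065_at) -0.51 to 0, RT1-Bb -0.32 to 1.5 and RT1-DMa -0.96 to 0.22. For ventilated against control they were RT1-Bb (1371065_at) -0.31 to 0.20, RT1-Db1 -0.07 to 0.06 and RT1-Db1 (1370382_at) -0.61 to 2.05. For supine against prone they were RT1-DMa -0.35 to 0.83 and RT1-Da -0.04 to 0.06. Calls over the whole table (prone, supine and all ventilated against control) were 35, 18 and 118 without a filter, 0, 0 and 5 with a filter at log2 7, 0, 0 and 11 with an intensity trend, 5724, 36 and 4704 with array weights, and 0, 0 and 0 with the replicate block. With only the compared groups they were 119 and 0 for prone and supine. Leaving out 1 array gave 0 to 115, 0 to 153 and 0 to 381, and 0 to 3 in supine against prone. The arrays carry no detection calls, so low values have no stated limit.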

Other observations

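Some probe sets of other RT1 genes, which encode class I molecules, also differed widely between animals, and their values are given with no test. A probe set that the annotation assigns to both RT1-A3 and RT1-A2 (1370428_x_at) was at 13.91, 2.69 and 12.47 in prone, 12.34, 2.30 and 2.65 in supine, and 12.38 and 2.49 in control lungs, so that high and low arrays occurred in every group. RT1-S3 (1388213_a_at) was at 11.41, 8.04 and 9.04 in prone, 10.79, 9.81 and 7.45 in supine, and 10.11 and 10.61 in control lungs. RT1-T24-3 (1388694_at) was at 13.24, 10.32 and 9.95 in prone, 12.72, 10.78 and 11.02 in supine, and 12.59 and 12.79 in control lungs. Within the prone group the set of RT1-A3 and RT1-A2 was high on the 2 arrays where RT1-Bb (1371033_at) was low and low where it was high, and RT1-S3 was lowest on prone replicate 2. In the supine and control groups that set was low on 3 arrays and high on 2, while RT1-Bb (1371033_at) was at 11.23 or above on all 5. Whether these values are related was not tested. These probe sets were picked after their values were seen, and other class I sets were more even. RT1-T24-4 (1389734_x_at) had a range of 0.78 over all arrays. The set of RT1-A3 alone (1371213_at) had a range of 1.47, at low values of 3.56 to 5.03.

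Ranked by likeness to RT1-Bb (1371033_at) over the 8 arrays, the RT1-Ba probe set 1370822_at came at rank 1 of 16895, with a root mean square difference of 2.57 log2 units. Among the next were Itgal, an integrin chain of leukocytes, with 3.01, Rgs4 with 3.07, and the B cell gene Ms4a1 with 3.15. Itgal was at 1.92, 8.37 and 9.75 on the prone arrays, so it was low on prone replicate 1 and not on prone replicate 3. Rgs4 was at 3.77, 7.94 and 5.28 there. The brighter RT1-Ba probe set came at rank 13076. The ranking was added after the values were seen and describes 8 arrays.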
